A study of Rattus norvegicus with 6 samples.

Results

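The mRNAs described here encode the non-catalytic partners of the Na,K-ATPase, the sodium pump that digitoxin binds. They are the β subunits Atp1b1, Atp1b2 and Atp1b3 and the FXYD regulators Fxyd1, Fxyd3, Fxyd4 and Fxyd5. The 7 members were taken by gene symbol from a table of 17557 rows, and each of the 7 was on 1 row. The level of each gene was given as FPKM, the count of fragments scaled to transcript length and to the mapped reads of the library, in 6 tumors.

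The tumors were subcutaneous PAIII tumors, grown from a transplantable rat prostate adenocarcinoma line in Lobund-Wistar rats that were 2 months old at implantation. The digitoxin group (A1, A6 and A12, replicates 1, 2 and 3) received 0.03 mg/kg digitoxin by intraperitoneal injection each day from day 10, and the vehicle group (B5, B9 and B14, replicates 1, 2 and 3) received vehicle alone. Tumors were taken on day 40, and RNA came from 10 micropunches of 1 mm in sections of 300 micron, with 1 library for each rat. According to the study's methods, the sequenced digitoxin rats had low serum levels of the cytokines IL-6 and CINC-1 and the sequenced vehicle rats had high levels. The drug and this choice of animals therefore cannot be told apart. According to the labels every tumor came from the same transplanted line, so the rats are separate hosts of 1 tumor line.

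Several features of the libraries bear on all values that follow. Pbsn, the gene of the prostate secretory protein probasin, was listed at 0 FPKM in 6 of 6 tumors, and Hoxb13, a transcription factor gene of prostate epithelium, was at 0.0937 FPKM or less. The 9 prostate epithelium markers in the table summed to 12.9 to 33.3 FPKM in the digitoxin group and 15.6 to 41.2 FPKM in the vehicle group, and 2 of the 9 had a mean of at least 1 FPKM, so the list was not absent as a whole. A12 and B14 differed from the remaining tumors in their content. The summed FPKM of 9 lung alveolar epithelium markers was 40.8 in A12 and 62.6 in B14, against 27883 to 84799 in the other 4 tumors, and Sftpc, the gene of a lung surfactant protein, was at 0.229 FPKM and listed at 0 there. The 7 airway epithelium markers summed to 9.62 and 7.04 FPKM in A12 and B14 and to 21106 to 131843 FPKM in the other tumors. Whether those 4 samples hold lung tissue was not tested. The alveolar sums ranged from 40.8 to 84799 in the digitoxin group and from 62.6 to 36044 in the vehicle group. Over all tested rows, A12 and B14 were also the most alike pair of libraries, with Pearson's r = 0.985 across genes, although they belong to different groups. A6 stood apart in another way, since its 10 cell division genes summed to 150 FPKM against 574 to 993 FPKM in the other tumors, and its r with A12 and B14 was 0.625 and 0.618. The groups follow the labels throughout. Among the ways of assigning 3 of the libraries to digitoxin, the group values tabulated by the study follow most closely one that exchanges A1 and B9, and follow the assignment as labelled hardly at all. Which is right was not settled here, so each direction and size of a difference between groups holds for the libraries as labelled only.

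The sodium pump moves sodium out of the cell and potassium into it at the cost of ATP. Its α subunit carries the catalytic site and the binding site for cardiac glycosides such as digitoxin. The β subunit is a glycoprotein that the α subunit needs to fold and reach the cell surface, and it also takes part in adhesion between cells. The FXYD proteins are small single-pass membrane proteins that bind the pump and adjust its affinity for ions and its rate.

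Before the levels, the DNA in front of 3 of the genes is shown: Atp1b3, whose level varied least over the 6 tumors, Fxyd4, whose level varied most, and Fxyd5, which was highest in A12 and B14. RefSeq windows (build GRCr8) were matched for 5 of 7 members, with 6 start sites in all because Fxyd5 has a pair of them. Atp1b1 and Fxyd3 were not matched. Each sequence is the 250 bases before the annotated start, read 5′ to 3′ on the gene's own strand, which is the minus strand for each. Capitals mark matches to the GC box GGGCGG, the CCAAT box CCAAT or the TATA box TATAAA on either strand.
Atp1b3, chr8:105821152-105821401: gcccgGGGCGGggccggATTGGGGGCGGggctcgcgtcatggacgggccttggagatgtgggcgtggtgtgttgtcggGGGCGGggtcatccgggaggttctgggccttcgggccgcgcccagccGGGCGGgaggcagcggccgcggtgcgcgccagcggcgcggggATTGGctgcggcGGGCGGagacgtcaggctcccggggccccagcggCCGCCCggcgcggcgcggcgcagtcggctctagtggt
Fxyd4, chr4:152786046-152786295: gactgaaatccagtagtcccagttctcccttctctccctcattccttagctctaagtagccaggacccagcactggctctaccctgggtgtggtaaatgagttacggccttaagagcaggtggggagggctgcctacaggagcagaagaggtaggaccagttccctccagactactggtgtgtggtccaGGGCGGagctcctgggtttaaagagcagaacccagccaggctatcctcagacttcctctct
Fxyd5, chr1:95404723-95404972: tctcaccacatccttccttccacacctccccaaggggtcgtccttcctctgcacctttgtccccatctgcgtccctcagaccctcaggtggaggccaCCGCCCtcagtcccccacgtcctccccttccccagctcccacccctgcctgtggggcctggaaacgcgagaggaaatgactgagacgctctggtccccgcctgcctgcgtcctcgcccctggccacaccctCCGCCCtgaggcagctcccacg
The Atp1b3 window was 79.6% G and C, the Fxyd4 window 55.6% and the Fxyd5 window shown 67.2%, against a median of 51.2% over all windows. The other Fxyd5 window, not shown, was 60.8% G and C and is the member window without a GC box. The GC box occurred in 5 of 6 member windows and in 30.5% of 33469 windows of the same length. Atp1b3 held 6 copies, and Fxyd4 held 1, at 61 to 56 bases before its start. CCAAT occurred in 2 of 6 member windows (34% of all windows) and TATAAA in 1 of 6 (12.9%), the Atp1b2 window, at 52 to 47 bases before the start. In Atp1b3, 1 CCAAT match on the opposite strand lies directly against a GC box. The letters TGTTCT of a steroid receptor half-site were in 0 of 6 member windows and in 17.5% of all windows. These matches describe the letters of the windows only.

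Atp1b3 and Atp1b1 were the abundant β subunits in every tumor, and neither differed between treated and control tumors beyond the spread of the rats. Atp1b3 encodes the β3 subunit, which many cell types make. Its level was 174, 204 and 157 FPKM in A1, A6 and A12 and 192, 200 and 148 FPKM in B5, B9 and B14. The groups overlapped closely, and A12 and B14 were the lowest tumors of their groups. The mean was 178 ± 23.6 FPKM with digitoxin and 180 ± 27.9 FPKM with vehicle (SD, n = 3 each). On the log2(FPKM + 1) scale, used for every difference here, digitoxin minus vehicle was −0.01 ± 0.22 (SE), with a 95% interval from −0.54 to 0.52 (limma, adjusted p = 0.994). In the table the gene lies at chr8:103638323-103669634.

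Atp1b1 encodes β1, the most widespread β subunit and the one of polarized epithelia. It stood at 193, 108 and 135 FPKM in A1, A6 and A12 and at 138, 118 and 124 FPKM in B5, B9 and B14. The 3 control tumors lay inside the range of the treated ones, whose highest and lowest tumors were the highest and lowest of all 6. The means were 145 ± 43.4 FPKM and 127 ± 10.3 FPKM (SD, n = 3 each), and the difference was 0.15 ± 0.26 (SE; 95% interval −0.48 to 0.79; limma, adjusted p = 0.935). Without A1 the difference was −0.07, the opposite sign, and without A6, the lowest tumor, it was 0.35. The row lies at chr13:87621446-87641967.

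Atp1b2, whose product was first described as an adhesion molecule on glia, was at the edge of detection. It stood at 1.03, 0.664 and 0.78 FPKM in A1, A6 and A12 and at 0.412, 1.05 and 2.07 FPKM in B5, B9 and B14. The vehicle group held both the lowest and the highest tumor, so the treated tumors lay within its range. The means were 0.823 ± 0.185 FPKM and 1.18 ± 0.838 FPKM (SD, n = 3 each), with a difference of −0.19 ± 0.39 (SE; 95% interval −1.15 to 0.77; limma, adjusted p = 0.941). Its mean over the 6 tumors passed the minimum of 1 FPKM only through the vehicle group, where B14 was high, so its direction is tied to that filter and nothing is read from it. Without B14 the difference was 0.09, and without both A12 and B14 it was 0.11. Of the Schwann cell and glial markers, Gfap was at 0.262 FPKM or less in every tumor, and the summed level of the 7 genes of that list ran from 17.5 to 321 FPKM in the digitoxin group and from 32 to 156 FPKM in the vehicle group. The part of such cells in the Atp1b2 level was not tested. The row lies at chr10:55951259-55957495.

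The β subunits together summed to 368, 312 and 293 FPKM in A1, A6 and A12 and to 331, 319 and 275 FPKM in B5, B9 and B14. Atp1b3 made 55.4% ± 9.11 of that sum with digitoxin and 58.3% ± 4.35 with vehicle, and Atp1b1 made 44.4% ± 9.07 and 41.3% ± 4.16 (SD, n = 3 each). In 5 of 6 tumors Atp1b3 was above Atp1b1, the exception being A1, where the ratio of Atp1b1 to Atp1b3 was 1.11. Atp1b2 made between 0.125% and 0.755%.

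**Figure D1:**
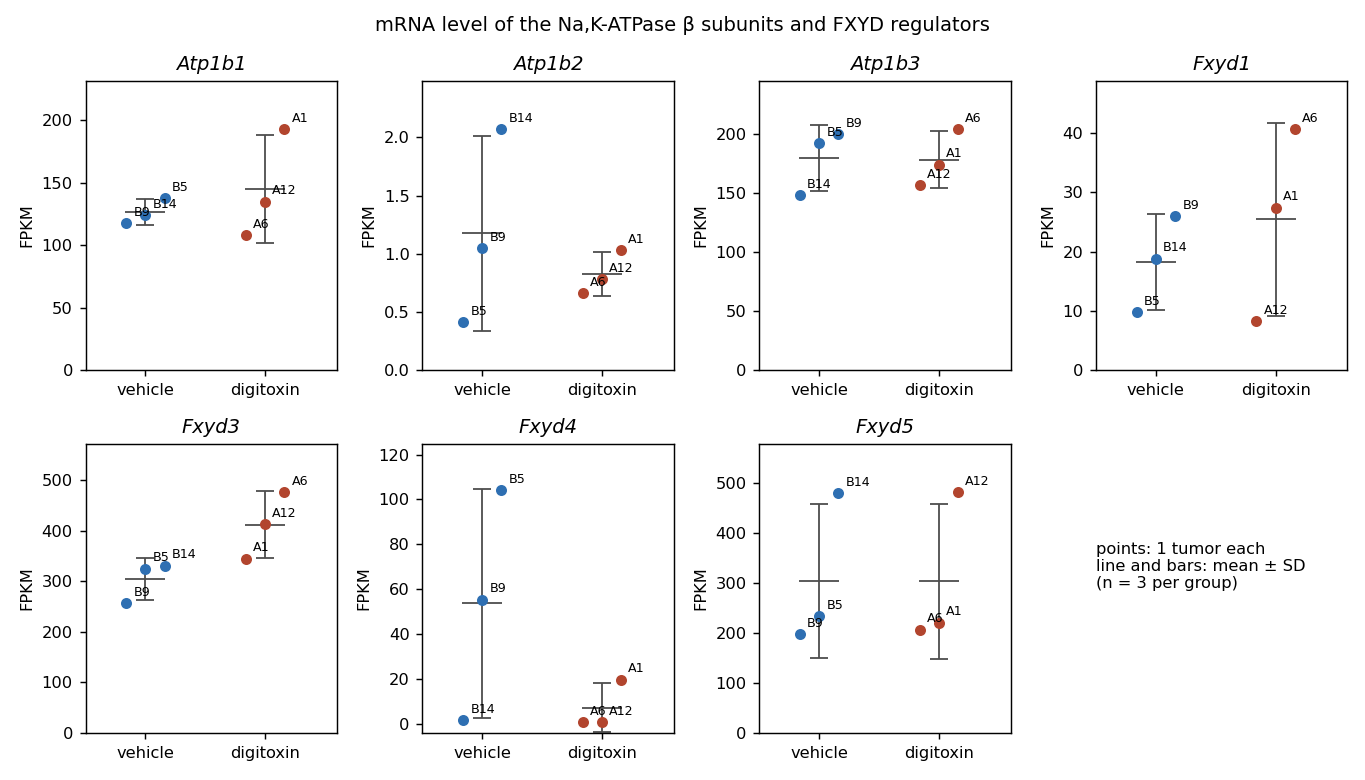
FPKM (vertical axes, each on its own linear scale) of the 7 genes in the 3 vehicle and 3 digitoxin tumors, with points for single tumors and lines and bars for the mean ± SD. Fxyd3 is the gene whose groups do not overlap, Fxyd4 spreads from 0.89 to 104 FPKM, and Fxyd5 is at 483 and 481 FPKM in A12 and B14.

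Of the FXYD regulators, Fxyd3 and Fxyd5 were among the most abundant mRNAs of every tumor, while Fxyd1 and Fxyd4 differed several-fold from tumor to tumor. Fxyd3 encodes a regulator first found in mammary tumors and is made by many epithelia and carcinomas. It stood at 345, 477 and 414 FPKM in A1, A6 and A12 and at 325, 257 and 331 FPKM in B5, B9 and B14. Each treated tumor was above each control tumor, and the closest were A1 at 345 and B14 at 331 FPKM. This separation rests on the labels of A1 and B9, because with those 2 exchanged the groups would overlap. Among the 7 members Fxyd3 was the 1 whose groups did not overlap, against 4.16% of all tested rows. The mean was 412 ± 66.2 FPKM with digitoxin and 304 ± 41.3 FPKM with vehicle (SD, n = 3 each), a difference of 0.43 ± 0.23 (SE; 95% interval −0.12 to 0.99). This did not pass the test (limma, adjusted p = 0.926). Between tumors of the same replicate number, which are not known to be matched, it was 0.09, 0.89 and 0.32. Without A12 and B14 it was 0.49, and without A6, the highest tumor, 0.32. The row lies at chr1:90657650-90664433. The summed level of the 10 epithelial cell markers ran from 1660 to 6131 FPKM in the digitoxin group and from 3489 to 4888 FPKM in the vehicle group, and its lowest value was in A6, where Fxyd3 was highest. Its part in the Fxyd3 level was not tested, and in bulk tumor RNA fewer cells of a type and less RNA per cell cannot be told apart.

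Fxyd5 encodes dysadherin, a regulator with a long extracellular stretch that is known for weakening contacts between epithelial cells. It stood at 221, 207 and 483 FPKM in A1, A6 and A12 and at 234, 198 and 481 FPKM in B5, B9 and B14. A12 and B14 were about equal and well above the other 4 tumors, which lay within 198 to 234 FPKM, and the groups overlapped. The means were 304 ± 156 FPKM and 304 ± 154 FPKM (SD, n = 3 each), and the difference was −0.01 ± 0.48 (SE; 95% interval −1.16 to 1.15; limma, adjusted p = 0.999). Without A12 and B14 it was also −0.01. The 2 tumors high in Fxyd5 were those low in the alveolar markers, and the part of lung tissue in these levels was not tested. The row lies at chr1:90620341-90629734.

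Fxyd1 encodes phospholemman, the regulator of heart and skeletal muscle, where kinases switch its hold on the pump. Its level was 27.4, 40.6 and 8.31 FPKM in A1, A6 and A12 and 9.83, 26 and 18.8 FPKM in B5, B9 and B14. The treated tumors included both the highest and the lowest of all 6. The means were 25.5 ± 16.2 FPKM and 18.2 ± 8.1 FPKM (SD, n = 3 each), with a difference of 0.31 ± 0.64 (SE; 95% interval −1.24 to 1.86; limma, adjusted p = 0.941). Without A12, the lowest tumor, it was 0.94. It was −0.14 without A6 and −0.05 without B5, and it was 1.01 without both A12 and B14 (limma, adjusted p between 0.261 and 1 over the alternatives). The summed levels of muscle markers overlapped between the groups. The 9 skeletal muscle genes summed to 4.36 to 14.4 FPKM with digitoxin and 9.24 to 18.1 FPKM with vehicle. The 8 heart muscle genes summed to 22.6 to 816 FPKM and 138 to 635 FPKM in the same order, carried mostly by Nppb and Tnnt2 in every tumor but A6, and Myh6, Nppa, Myl7 and Actc1 were listed at 0 in A12 and B14. The 6 smooth muscle genes summed to 183 to 377 FPKM with digitoxin and 62.1 to 781 FPKM with vehicle. That sum was lowest in B5, where Fxyd1 was also low, but it was 377 FPKM in A12, where Fxyd1 was lowest, and 183 FPKM in A6, where Fxyd1 was highest. The part of muscle in the Fxyd1 level was not tested. The row lies at chr1:90639291-90643313.

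Fxyd4 encodes the corticosteroid hormone-induced factor of kidney collecting duct and distal colon. Its levels were 19.7, 0.89 and 0.902 FPKM in A1, A6 and A12 and 104, 55.3 and 1.76 FPKM in B5, B9 and B14. B5 and B9 were the highest, A1 came next, and A6, A12 and B14 were all under 2 FPKM, so the vehicle group held a tumor from each end and the groups overlapped. Between tumors of the same replicate number, which are not known to be matched, digitoxin minus vehicle was −2.34, −4.90 and −0.54. Another numbering would give mixed signs, since A1 at 19.7 FPKM was above B14 at 1.76 FPKM. With A1 and B9 exchanged, the vehicle group would hold 19.7 in place of 55.3 FPKM, and the digitoxin group 55.3 in place of 19.7 FPKM. The difference would then be smaller, so its size also rests on those labels. The highest tumor was 117 times the lowest, and the SD of the log2 level over the 6 tumors, 2.60, was larger than that of 99% of the tested rows. The mean was 7.17 ± 10.9 FPKM with digitoxin and 53.6 ± 51.1 FPKM with vehicle (SD, n = 3 each).

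The Fxyd4 difference, −2.59 ± 1.61 (SE; 95% interval −6.48 to 1.30), did not pass the test (limma, adjusted p = 0.926). Blocking on replicate number, which is not known to match the tumors, left its size as it was and gave an SE of 0.77 (limma, adjusted p = 0.638). Without B14 the difference was −4.19 ± 1.18 (SE; limma, adjusted p = 1), and without A12 and B14 it was −3.62 ± 1.05 (SE; limma, adjusted p = 0.392). Without B5 it was −1.57, and without A6 it was −2.01. The unadjusted p was under 0.05 in 3 of the 12 alternatives tested, namely the block and the fits without B14 and without A12 and B14, and the adjusted p lay between 0.392 and 1. Among the 5 kidney tubule markers the summed level was 0.378 FPKM or less in every tumor. That list is not specific to collecting duct and holds no marker of distal colon, and the source of the Fxyd4 mRNA was not tested. In the table Fxyd4 lies at chr4:215913321-215917183, away from the other members.

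**Figure D2:**
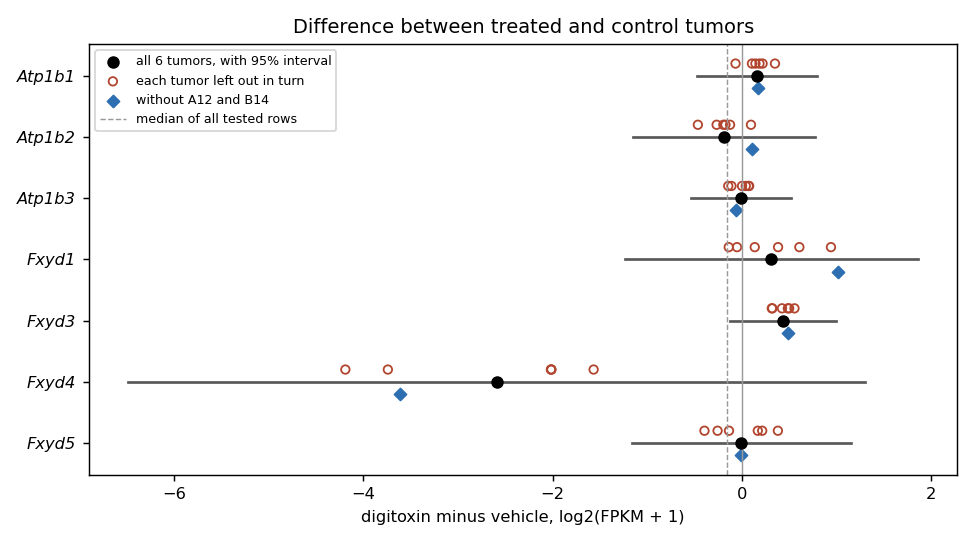
Difference between digitoxin and vehicle tumors on the log2(FPKM + 1) scale (horizontal axis) for each gene, with black points and lines for all 6 tumors and the 95% interval, open circles for fits that leave out 1 tumor each, and diamonds for the fit without A12 and B14. Each interval includes 0, and Fxyd4 and Fxyd3 are the genes whose circles all lie on 1 side of 0.

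Across the 7 members, 0 passed an adjusted p of 0.05 in limma, as did 0% of the 10749 tested rows. At an unadjusted p under 0.05 there were also 0 members, against 0.335% of the rows, and 1 member (Fxyd4) with the replicate block, under which the rows past that threshold went from 36 to 446. Of the members 4 had a lower and 3 a higher mean log2 level with digitoxin, where 64.9% of all tested rows were lower. The 4 include Atp1b2, which entered the test through its vehicle group. The median of the members, Atp1b2 included, was −0.01 and that of all rows −0.16. Without Atp1b2 the members' median would be positive, so nothing is read from its sign. Scaling the tumors by the median of ratios moved the median of all rows by 0.18, to 0.02, with 48.5% of rows lower, and then 1 of the 6 members tested was lower. Relative to the median of all rows, Fxyd3 was at 0.60 and Fxyd4 at −2.43 as deposited, and at 0.61 and −2.47 after that scaling. Relative to it, Fxyd1 was at 0.47, Atp1b1 at 0.32, Fxyd5 at 0.16, Atp1b3 at 0.15 and Atp1b2 at −0.03. For a single gene, permuting 3 treated and 3 control tumors exactly allows no p below 0.1, so no such p is given.

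FPKM is scaled to transcript length, so levels of different genes can be set side by side. In every tumor Fxyd3 was above 97.8% or more of the 17557 rows of the table, untested rows included, Fxyd5 above 96.8% or more, Atp1b3 above 95.8% or more and Atp1b1 above 93.9% or more. Atp1b2 was above 35.9% to 46.4% of the same rows and was the lowest member in 5 of 6 tumors, the exception being B14, where Fxyd4 was lower. The order of Fxyd3 and Fxyd5 was not fixed: Fxyd3 exceeded Fxyd5 in A1, A6, B5 and B9, with ratios of 1.3 to 2.31, and was below it in A12 and B14, at 0.857 and 0.689. Fxyd3 also exceeded both abundant β subunits in every tumor. Atp1b3 was the steadiest member, with a smaller SD over the 6 tumors than all but 8.42% of the tested rows, and Atp1b1 and Fxyd3 followed at 23.3% and 26%.

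Among the 4 FXYD members, Fxyd3 made 55.9% ± 10.04 of their summed FPKM with digitoxin and 45.3% ± 4.79 with vehicle (SD, n = 3 each). Fxyd5 made 39.3% ± 12.7 and 43.2% ± 12.7, with its largest shares in A12 (53.3%) and B14 (57.7%). Fxyd4 made 15.4% in B5 and 10.3% in B9, 3.22% in A1, and 0.212% or less in A6, A12 and B14. The ranges of the treated and control tumors overlapped for each of these shares. Taken over all 7 FXYD genes of the table, a choice made after seeing the data, the Fxyd3 share was 43.4%, 53.6% and 42.8% in A1, A6 and A12. It was 40.7%, 41.3% and 35.1% in B5, B9 and B14. The groups did not overlap under that later choice of sum. This separation rests on the labels of A1 and B9, because with those exchanged the groups would overlap. How often shares of other genes separate in this way was not counted. The 4 genes summed to 612, 725 and 906 FPKM in A1, A6 and A12 and to 673, 536 and 832 FPKM in B5, B9 and B14.

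**Figure D3:**
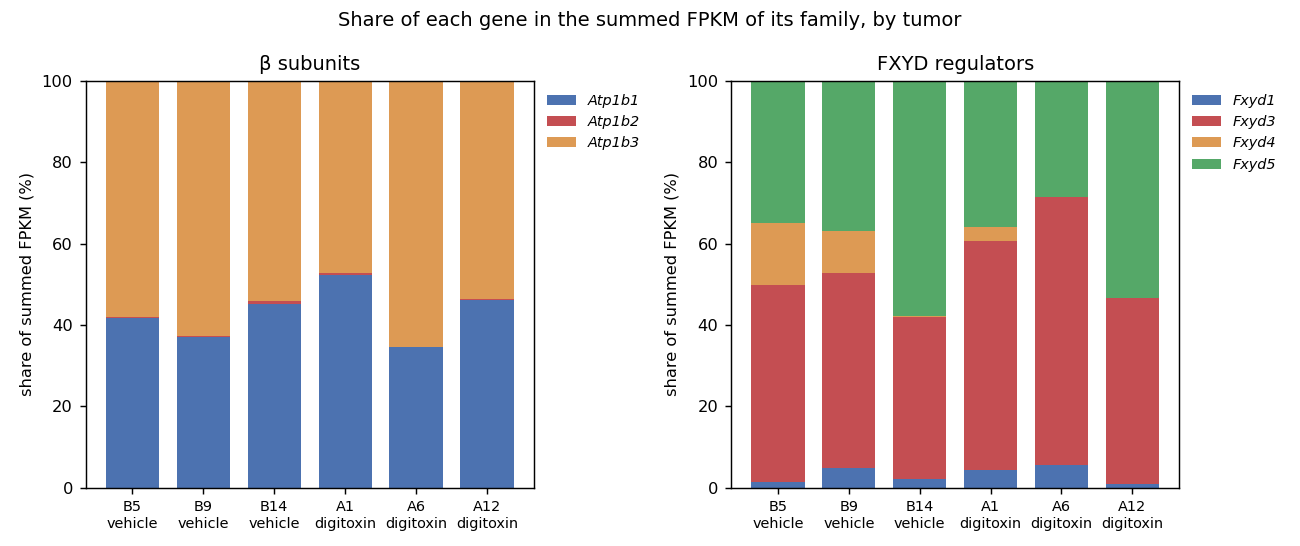
Stacked bars of the share of summed FPKM (vertical axis, percent) that each gene makes up within the 3 β subunits (left) and the 4 FXYD regulators (right) in each tumor. Atp1b1 and Atp1b3 divide the β sum in all 6 tumors, and Fxyd4 is visible in B5, B9 and A1.

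The remaining pump genes were read from a list of 12, of which 10 were in the table and 6 were tested. Of those 4 were higher and 2 lower with digitoxin, and 0 passed either threshold (limma). Atp1b4, a relative of the β subunits found in muscle, was at 0.654 FPKM or less. Fxyd2, the γ subunit of kidney, stood at 155, 114 and 56.9 FPKM in A1, A6 and A12 and at 113, 66.2 and 104 FPKM in B5, B9 and B14, with a difference of 0.13 ± 0.42 (SE). It therefore ranked above Fxyd1 in every tumor and overlapped between the groups. Fxyd6, a regulator known from brain and inner ear, was at 25.5, 49 and 4.35 FPKM and at 12.3, 16.8 and 7.78 FPKM, with a difference of 0.59 ± 0.83 (SE), and was lowest in A12 and B14. Fxyd7, the brain regulator, was at 2.32 FPKM or less. Nkain4, whose product interacts with the pump, was at 31.7, 32.4, 24 and 19.2 FPKM in A1, A6, B5 and B9, at 0.168 FPKM in B14 and listed at 0 in A12, and Nkain3 was at or near 0. The H,K-ATPase genes Atp4a, Atp4b and Atp12a, which encode the related acid pumps, summed to 0.233 FPKM or less, and 0 of 3 were tested.

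**Figure D4:**
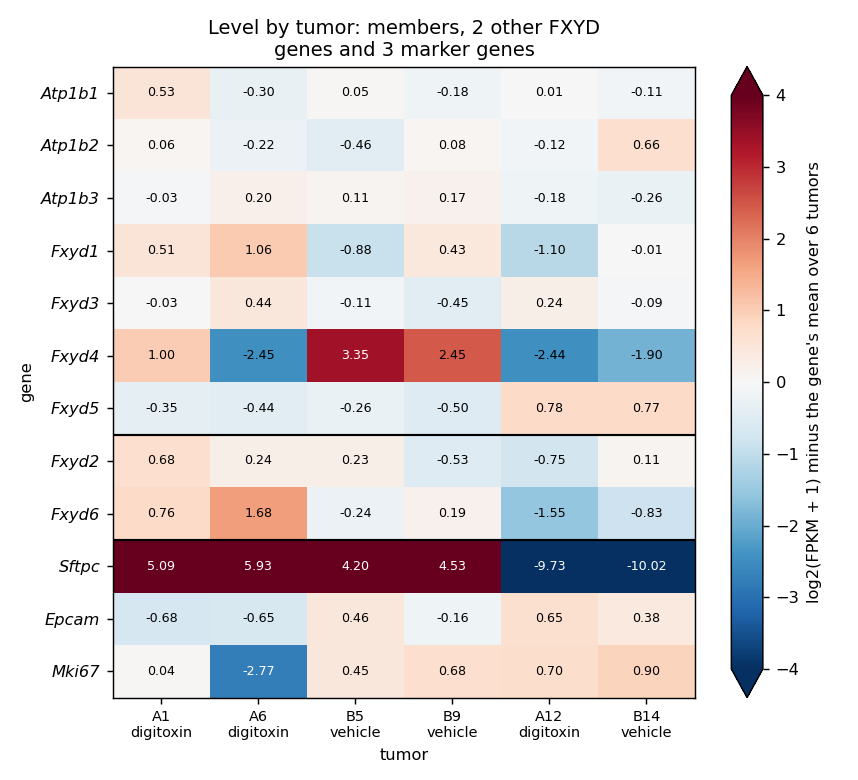
log2(FPKM + 1) of each gene minus its mean over the 6 tumors (color and printed number), with rows for the 7 genes, for Fxyd2 and Fxyd6, and for the markers Sftpc (alveolar epithelium), Epcam (epithelium) and Mki67 (cell division), and with A12 and B14 as the right columns. Fxyd5 is high and Fxyd6 and Sftpc low in both, and Fxyd4 is low in A6, A12 and B14.

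Genes that bring the pump to the membrane, anchor it or signal with it were described from a list of 18, of which 16 were tested. In this list 4 were higher and 12 lower with digitoxin, a median of −0.35 against −0.16 over all rows, and 0 passed either threshold (limma). Of 23 genes of other sodium, potassium and chloride routes, 19 were tested, with 9 higher, 10 lower and a median of −0.09, and again 0 passed either threshold.

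On chromosome 1 of the table, Fxyd5, Fxyd7, Fxyd1 and Fxyd3 follow each other, with 347 bases between Fxyd5 and Fxyd7, 209 between Fxyd7 and Fxyd1, and 14336 between Fxyd1 and Fxyd3. Fxyd5 was highest in A12 and B14 and lowest in B9, Fxyd1 was highest in A6 and lowest in A12, and Fxyd3 was highest in A6 and lowest in B9. The library kit did not keep strand, so reads where neighboring genes meet cannot be assigned by strand.

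The rows most like each member were found from the root mean square difference of log2 profiles over the 6 tumors, each centered on its mean. For Atp1b3 they were Paip2, Sra1 and Vps33b (0.0342 to 0.0423), for Atp1b1 Fam76a, Pcyox1l and Cbr1 (0.0997 to 0.139) and for Atp1b2 Arl10, Mfap2 and Ddr2 (0.0675 to 0.0962). For Fxyd3 they were Smarcd3, Eif3f and Ccdc124 (0.0919 to 0.107), for Fxyd5 Prkar1b, Rasd1 and Chac1 (0.0698 to 0.116) and for Fxyd1 Cyp2j4, Lmcd1 and Myoz1 (0.212 to 0.258). For Fxyd4 they were Mcpt2, Slc6a14 and Cpa3 (1.23 to 1.32). This distance grows with a gene's own spread, so it is not compared between members. Mcpt2, a mast cell protease gene, was at 19.2 and 8.1 FPKM in A1 and A6, at 116 and 26.2 FPKM in B5 and B9, and listed at 0 in A12 and B14. Slc6a14, an amino acid transporter gene, was at 17.2, 5.54 and 1.61 FPKM in A1, A6 and A12 and at 18.4, 42.1 and 3.8 FPKM in B5, B9 and B14. Like Fxyd4, both were higher in B5 and B9 than in A6 and A12, but A6 was not as low in them.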

How the data were processed

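RNA-seq of 6 PAIII tumors, 3 per group, was analysed from 1 table. Per the labels and the study's methods, single reads from an unstranded TruSeq kit passed through CASAVA, FastQC, Bowtie2, TopHat2 and Cufflinks, and the authors deposited FPKM values per gene. The only build the labels name is hg19, a human one, and the rat build is not given in the sources used here, so coordinates are as the table gives them and their build is unknown. Cuffdiff needs reads and was not repeated. Low FPKM values had no common step (the most frequent ratio to B9 held for 2.43% of rows or fewer), so whole reads were not recovered, and depth and the precision of low values are unknown. The FPKM columns sum to 651322 to 1025231.

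From these values log2(FPKM + 1) was fitted with limma 3.58.1 (eBayes with a trend, two-sided, Benjamini-Hochberg) over 10749 rows (mean FPKM of 1 or more), which included all 7 members (Atp1b2 only just). The pseudocount of 1 understates changes of low genes. The alternatives were to scale the tumors by the median of ratios, to block on replicate number, to drop the trend, to drop the filter, to set the pseudocount to 0.1, to leave out each tumor or A12 with B14, and to take the ratio of group means. One alternative, FXYD shares over all 7 FXYD genes, was chosen after seeing the data. Same-numbered tumors deviated together (r = 0.426, 0.606 and 0.869). However, A1 with B9 (0.644) and A6 with B5 (0.612) were higher than A1 and A6 with their own numbers. According to the study, rats were picked randomly from each extreme of the serum levels, so the label numbers give no known matching. The block on them is an alternative only.

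The members, lists and tests were chosen with earlier results of these data known. Named genes are the members, the other pump genes in the table (some of them, and some markers, are not reported here), pathway genes with an unadjusted p under 0.05 (0 genes beyond the first list), the 3 rows most like each member, and markers whose values stand beside a member. Replicates are separate rats. Promoter windows are from RefSeq (GRCr8). Python 3.11.15 and R 4.3.3 were used.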

Additional observations from a re-analysis of the deposited data

How the results depend on the processing

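Over the alternatives 0 members passed an adjusted p of 0.05 in limma. Fxyd3 and Fxyd4 changed sign in 0 of the fits that leave out tumors, and in 0 with another scaling or pseudocount; dropping the filter or the trend, or adding the block, cannot move the estimate. Exchanging A1 and B9 was not run. With median-of-ratios scaling Atp1b3 was at 0.18 and Fxyd5 at 0.19, so both changed sign, and 1 member was lower; Atp1b2 then had no value, as its mean was under the minimum. Leaving out A12 and B14 turned Atp1b2 to 0.11. Leaving out 1 tumor at a time gave ranges of −0.0687 to 0.348 for Atp1b1, −0.467 to 0.0945 for Atp1b2, −0.146 to 0.075 for Atp1b3, −0.14 to 0.94 for Fxyd1, 0.31 to 0.55 for Fxyd3, −4.19 to −1.57 for Fxyd4 and −0.40 to 0.38 for Fxyd5, and 2 (without vehicle replicate 3) to 4 members were lower. The signs that changed were those of Atp1b1 without digitoxin replicate 1 (−0.0687), Atp1b2 without vehicle replicate 3 (0.0945), Atp1b3 without digitoxin replicate 1 (0.000242) or 3 (0.075) and without vehicle replicate 1 (0.04) or 2 (0.07), Fxyd1 without digitoxin replicate 2 (−0.14) or vehicle replicate 1 (−0.05), and Fxyd5 without digitoxin replicate 1 (0.17) or 2 (0.21) or vehicle replicate 3 (0.38). The cause was not tested. The replicate block, which matches tumors by label number only, left the Fxyd4 difference at −2.59 and changed no adjusted call of a member. Rows with an unadjusted p under 0.05 numbered 36 as fitted, 446 with the block, 185 without the filter, 2114 without A12, 1183 without A12 and B14, and 13 to 52 without any other single tumor. The rows past an adjusted p of 0.05 were 2 without B14 and 2 without A12 and B14. With 3 tumors a group and unknown depth, the intervals of Fxyd1, Fxyd4 and Fxyd5 cover more than 1 log2 unit in either direction.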
